A study of Mus musculus with 4 samples.

Results

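The 53 genes described here encode proteins of the G2 phase and of mitosis: cyclins and CDK1, mitotic kinases, spindle checkpoint and kinetochore proteins, spindle proteins, condensins, and the machinery of anaphase and cytokinesis. Members were chosen by name, with earlier results of these data known, and the kinesin motors were left out. All 53 were found among the 23284 gene rows. RNA was sequenced from leukemic cells with high c-Kit (a surface receptor of immature blood cells), isolated by sorting in a mouse model of leukemia driven by MLL. Cells came from 2 Msi2 -/- mice, which lack the RNA-binding protein Musashi 2, and from 2 Msi2 flox/flox mice, whose alleles carry loxP sites and are called control here. All were on the C57BL/6 strain, with 1 library per mouse. No source used here gives the age of the mice, the Cre driver, the MLL fusion or the time of deletion. The genotype check gave 2804 and 3562 counts of Msi2 in control 1 and control 2, and 8 and 17 counts in Msi2 -/- replicates 1 and 2.

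Progression through G2 into mitosis is driven by CDK1 bound to cyclin A and cyclin B. Transcripts of this phase build up late in the cell cycle, under the transcription factors B-MYB and FOXM1 and the MuvB complex, which binds a promoter element called CHR. Destruction of cyclin B and securin by the anaphase-promoting complex ends mitosis, and the cell then divides at the midbody. In a population of dividing cells the level of these transcripts follows both the share of cells in G2 and M and the amount of RNA per cell, and bulk libraries cannot tell these apart.

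Gene counts totalled between 72273679 and 87564774 per library, and each member had at least 997 counts in every library, so counting error was small beside the differences between mice. Levels are in CPM, gene counts scaled relative to TMM-scaled library size, and differences are log2 fold changes, Msi2 -/- minus control, with their standard error (SE). All 7 progenitor markers (Kit, Ptprc, Myb, Hoxa9, Meis1, Mpo and Elane) were present, from 50.4 CPM for Kit to 6632 CPM for Elane. Mpo, the myeloperoxidase of granulocyte progenitors, measured 4001 and 4953 CPM in control mice, against 2117 and 2159 CPM in Msi2 -/- mice (log2 fold change -1.07 ± 0.127 SE; adjusted p of 0.265 in edgeR and 8.4e-12 in DESeq2). Myb, a transcription factor of progenitors, measured 740 and 690 CPM in control mice, against 500 and 591 CPM in Msi2 -/- mice (log2 fold change -0.39 ± 0.109 SE; adjusted p of 0.335 in edgeR and 0.0417 in DESeq2). Neither DESeq2 nor edgeR called the other 5. Hba-a1, Cma1, Ms4a1, Pax5, Cd3e, Cd3g and Cd8a, markers of erythroid, mast, B and T cells, had 0 counts in all 4 libraries. Other markers of these lists were detected, with Tfrc between 342 and 373 CPM, Mcpt8 between 9.77 and 22.5 CPM, Lck at up to 9.95 CPM and Nkg7 between 22.8 and 177 CPM. The T and NK cell list summed to 130 and 187 CPM in control mice, against 29.3 and 156 CPM in Msi2 -/- mice. For the megakaryocyte list the sums were 3.22 and 2.52 CPM, against 2.94 and 4.46 CPM. The stromal and endothelial list, mostly Pecam1, summed to 59.2 and 73.1 CPM in control mice, against 25.4 and 167 CPM in Msi2 -/- mice. Its Col1a1 was higher without overlap, at 0.284 and 0.288 CPM in control mice, against 0.767 and 0.715 CPM in Msi2 -/- mice. The 6 marker transcripts of maturing neutrophils added up to 998 and 626 CPM in control mice, against 1356 and 2120 CPM in Msi2 -/- mice, with none of the 6 at 0. DESeq2 called S100a8, S100a9 and Ltf higher and did not call Camp, Ngp or Mmp9. The groups overlapped for Camp and Ngp. Mmp9 went the other way, at 0.802 and 0.851 CPM in control mice, against 0.698 and 0.312 CPM in Msi2 -/- mice. Xist measured 1455 and 654 CPM in control mice, against 0.469 and 0.624 CPM in Msi2 -/- mice. The summed level of 4 Y-linked genes was 41.1 and 184 CPM in control mice, against 224 and 242 CPM in Msi2 -/- mice. Both controls thus held Xist and Y-linked transcripts together, in unequal amounts, so neither read as cells of 1 sex. Whether these libraries mix cells of more than 1 animal was not tested. Nor was the part of such mixing, of sex or of the marker differences in the results below, the difference between the controls included. Library names start with a number that differs between the genotypes, and if it marks a batch, batch and genotype cannot be told apart.

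Most mitotic transcripts stood a little higher in the Msi2 -/- cells, by amounts close to the difference between the 2 control mice. Together the 53 members reached a summed level of 8243 CPM in control 1 and 7513 CPM in control 2, and of 9122 and 9182 CPM in the Msi2 -/- mice. All 53 passed the filter on low counts. On the log2 scale 45 lay above 0 and 8 lay below it, against 49.7% above 0 over all 13215 tested genes. The median over the members was 0.17, a 1.13-fold difference, with members ranging from -0.31 to 0.79. Over all tested genes the median was -0.0020. Both Msi2 -/- libraries lay above both controls for 30 members and below both for 4, whereas 23.7% and 24.6% of all tested genes did so. Cdc25b, Prc1, Foxm1 and Nusap1, 4 members in all, passed 1.5-fold, each upward, and 15.8% of all genes passed it in either direction. Without control 2, 0 members passed 1.5-fold, and without control 1, 8 did, all upward, beside 18.2% and 20.4% of all genes.

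In edgeR's quasi-likelihood test no member passed an adjusted p of 0.05, and the test called 1 gene in all, or 0.00757% of those tested. That gene was not Msi2, whose adjusted p was 0.122 in edgeR and 6.3e-80 in DESeq2, at a log2 fold change of -8.07 in edgeR. With 2 mice per group, a gene that edgeR did not call is thus not shown to be unchanged. The smallest adjusted p among the members was 0.271, for Nusap1. At an unadjusted p under 0.05, edgeR had 16 members higher and 1 lower, where 6.69% and 6.17% of all tested genes were higher and lower. DESeq2's adjusted p was under 0.05 for 8 members, all of them higher, where it called 3.1% of its tested genes higher and 2.71% lower. These 8 were Nusap1, Prc1, Foxm1, Racgap1, Mki67, Ccna2, Gtse1 and Smc4. Limma-voom called 0 genes, and before adjustment 15 members were higher and 1 was lower at p under 0.05, where 6.41% of all tested genes were higher. The DESeq2 calls depended on single mice, and the share of all genes called with a library left out is not given here. Each such fit leaves a single mouse in 1 group. Without control 2, only Nusap1 and Prc1 kept their calls. Without control 1 the calls of Ccna2, Mki67, Racgap1 and Smc4 were lost, and Ccnb1, Cdc25b, Cenpf, Plk1, Spc25 and Ube2c were gained. Without Msi2 -/- replicate 1 the 4 calls were Foxm1, Mki67, Nusap1 and Prc1, and without replicate 2 they were Foxm1, Nusap1, Prc1 and Smc4. Nusap1 and Prc1 were called by DESeq2 whichever library was left out.

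**Figure D1:**
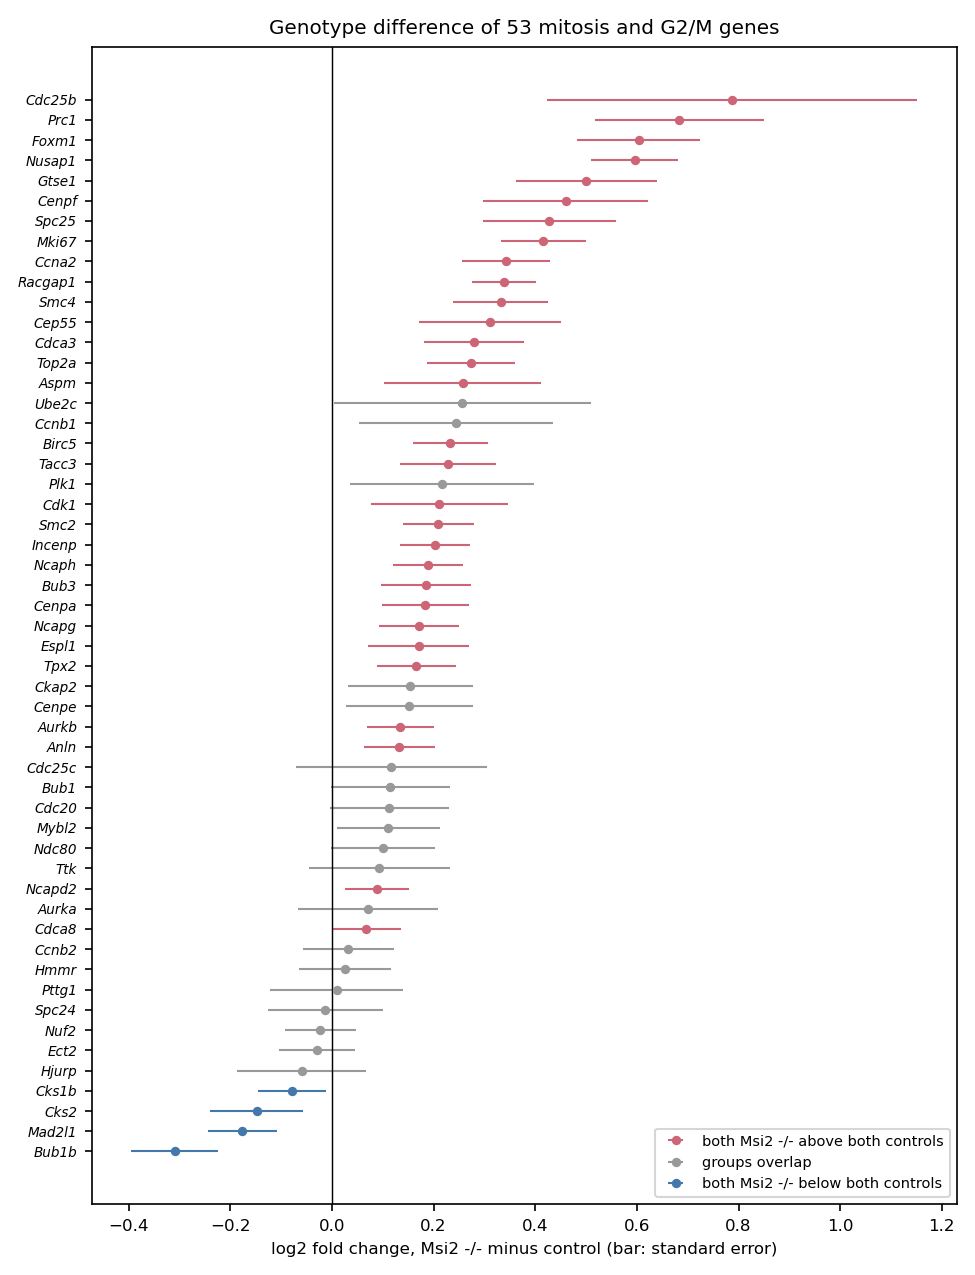
Log2 fold change of each of the 53 members (horizontal axis, Msi2 -/- minus control), with bars for the standard error from edgeR's fit on 2 mice per group. Colours show whether the groups overlap. The members run from Bub1b at -0.31 to Cdc25b at 0.79, and most points lie right of 0.

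The 2 controls were unequal for these genes, and the Msi2 -/- mice were more alike. Control 2 lay below control 1 for 47 of the 53 members, with a median log2 difference of -0.17. Over all 13215 tested genes, control 2 lay above control 1 for 6439, with a median of -0.0066. Msi2 -/- replicate 2 lay above replicate 1 for 25 members and below for 28, with a median difference of -0.01. For 23 members the controls differed by more than the genotypes did, though a difference between single mice varies more than one between group means. The share of all genes for which this held is not given here. Against control 2, the Msi2 -/- libraries were higher for 46 and 48 members, and against control 1 for 37 and 35. Without control 2, 36 members lay above 0 and 17 below, with a median log2 fold change of 0.09. Without control 1, 46 lay above and 7 below, with a median of 0.27. At an unadjusted p under 0.05, 6 members were higher without control 2 and 20 without control 1, where 2.47% and 4.74% of all genes were higher. The comparison of genotypes and the comparison between the controls share the control libraries. Cdc25b, Ube2c, Ccnb1, Plk1 and Prc1 had the largest differences between the controls, from -1.03 for Cdc25b to -0.45 for Prc1. Mki67, Racgap1 and Smc4 had small ones, at 0.05, -0.04 and -0.03.

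**Figure D2:**
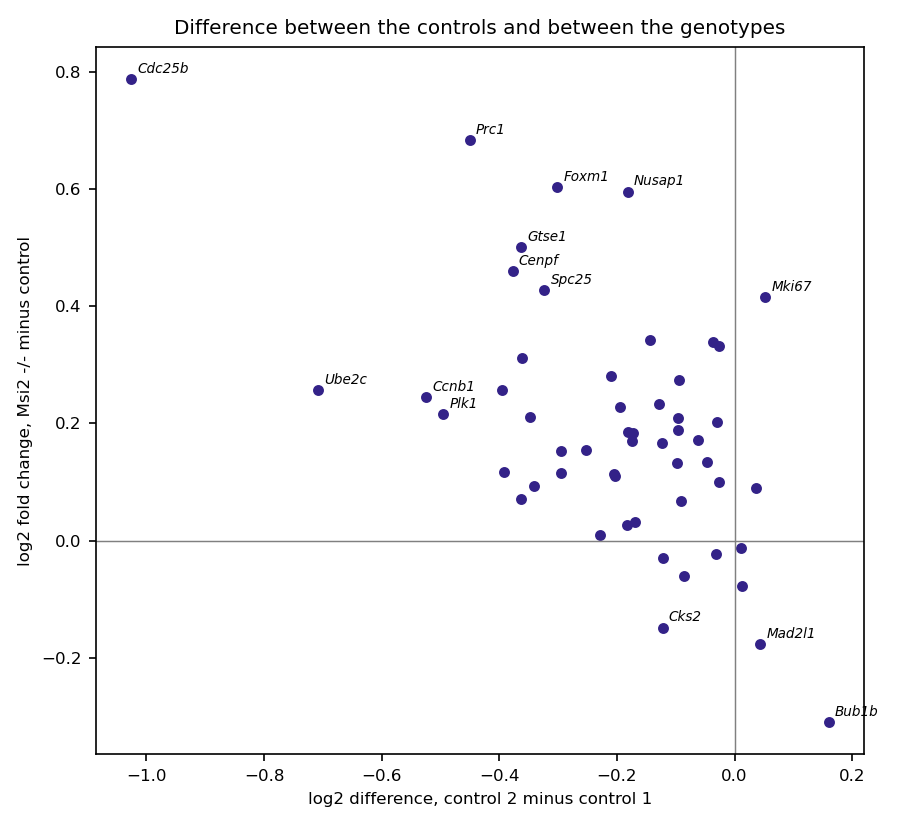
Each point is 1 of the 53 members, with the log2 difference between the controls (control 2 minus control 1) on the horizontal axis and the log2 fold change between genotypes on the vertical axis. Cdc25b and Ube2c lie far left, at -1.03 and -0.71, while Mki67 lies near 0 on the horizontal axis and at 0.42 on the vertical axis. Both axes use the control libraries.

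Promoters of these genes are shown because most members lay on the same side between libraries, and because CHR elements and CCAAT boxes, which bind NF-Y, are known features of this gene class. RefSeq windows of 250 bases before to 50 bases after a transcript start (GRCm38.p6) were matched by symbol for 45 of the 53 members, giving 50 windows, some of which overlap. Both strands were searched for the CHR letters TTTGAA or TTCGAA, for CCAAT, and for the E2F letters TTCCCGC or TTGGCGC. The reverse of CCAAT can share letters with TTGGCGC. A CHR match was in 74.0% of member windows, in 13.9% of the windows of all tested genes, and in 19.2% of all promoter windows. For CCAAT the shares were 76.0%, 38.0% and 37.4%. Both kinds of match were in 66.0% of member windows, 5.65% of windows of tested genes and 7.52% of all windows. The E2F letters were in 16.0%, 11.6% and 6.81%. These are matches of letters and not mapped binding sites.

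**Figure D3:**
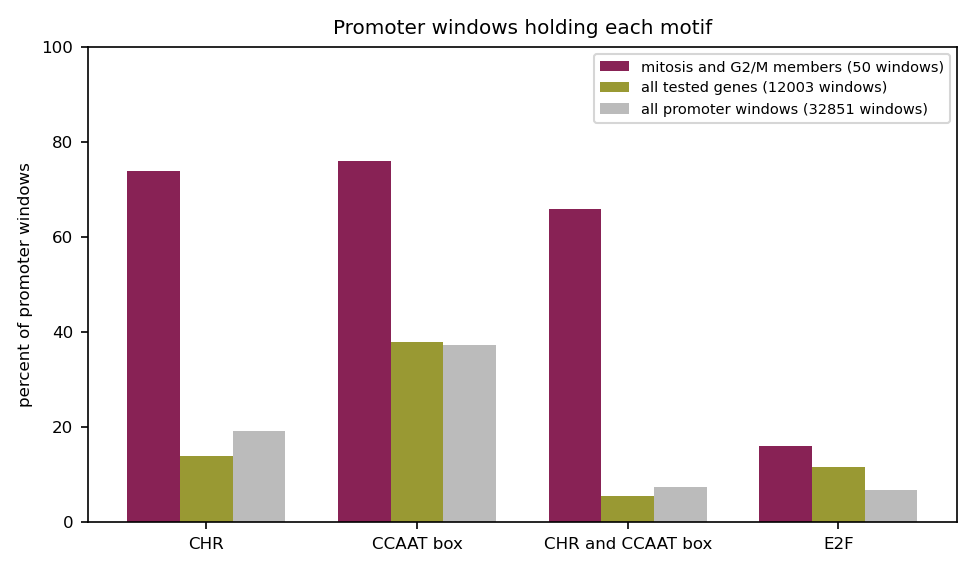
Percent of promoter windows (vertical axis) that hold at least 1 match to each motif family, for the members, all tested genes and all RefSeq windows. The bars for CHR and for CHR with a CCAAT box reach 74.0% and 66.0% in the members and 13.9% and 5.65% in all tested genes.

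The last 150 bases before the start are printed for 8 members that the results turn on, 5′ to 3′ on the gene's strand, with CHR and CCAAT matches of either orientation in capitals. Top2a and Mki67 are among the most abundant members, Ube2c, Ccnb1 and Plk1 are among the 5 members that differed most between the controls, Prc1 and Nusap1 were called whichever library was left out, and Bub1b was lower.
Top2a, chr11:99024190-99024339, minus strand: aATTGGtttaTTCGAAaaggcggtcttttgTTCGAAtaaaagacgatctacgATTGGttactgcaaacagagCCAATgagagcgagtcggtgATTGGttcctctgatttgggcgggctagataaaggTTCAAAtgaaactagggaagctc
Mki67, chr7:135716380-135716529, minus strand: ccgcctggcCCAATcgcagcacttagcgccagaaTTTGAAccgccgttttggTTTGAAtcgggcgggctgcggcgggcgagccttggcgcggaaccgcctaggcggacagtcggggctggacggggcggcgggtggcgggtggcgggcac
Ube2c, chr2:164769779-164769928, plus strand: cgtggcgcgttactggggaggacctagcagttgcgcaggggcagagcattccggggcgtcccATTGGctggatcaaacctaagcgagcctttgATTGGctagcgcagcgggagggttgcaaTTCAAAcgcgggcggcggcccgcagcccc
Prc1, chr7:80294326-80294475, plus strand: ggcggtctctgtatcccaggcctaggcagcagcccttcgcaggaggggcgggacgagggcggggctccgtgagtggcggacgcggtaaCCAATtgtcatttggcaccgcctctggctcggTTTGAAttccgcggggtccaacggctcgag
Ccnb1, chr13:100786487-100786636, minus strand: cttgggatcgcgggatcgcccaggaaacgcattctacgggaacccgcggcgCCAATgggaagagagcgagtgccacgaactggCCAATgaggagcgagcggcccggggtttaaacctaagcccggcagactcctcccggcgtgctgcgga
Plk1, chr7:122159285-122159434, plus strand: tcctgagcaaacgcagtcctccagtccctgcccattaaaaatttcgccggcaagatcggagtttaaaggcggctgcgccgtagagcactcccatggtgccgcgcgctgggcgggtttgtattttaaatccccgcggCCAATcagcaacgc
Bub1b, chr2:118598061-118598210, plus strand: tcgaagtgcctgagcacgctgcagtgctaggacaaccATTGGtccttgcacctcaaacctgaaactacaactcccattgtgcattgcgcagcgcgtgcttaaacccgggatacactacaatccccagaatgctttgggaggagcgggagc
Nusap1, chr2:119618148-119618297, plus strand: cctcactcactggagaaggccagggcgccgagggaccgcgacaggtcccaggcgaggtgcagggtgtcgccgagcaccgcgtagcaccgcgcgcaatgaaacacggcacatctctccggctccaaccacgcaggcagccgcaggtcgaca
Top2a held 3 CHR and 4 CCAAT matches in this stretch, and Mki67 held 2 CHR matches, starting 116 and 98 bases before the start. Ube2c and Prc1 held 1 CHR match each, at 29 and 30 bases. RefSeq has a second, upstream start for Prc1, whose 150 bases (chr7:80294301-80294450) held 1 CCAAT match and 0 whole CHR matches, since the CHR letters run across that start. Ccnb1 and Plk1 held CCAAT matches there but neither TTTGAA nor TTCGAA, and Nusap1 held no match of either kind. In its full window Plk1 also had a CHR match, at base 31 after the start. Other spellings of the CHR element were not searched, so a promoter without a match is not shown to lack it. The median log2 fold change was 0.18 for the 30 matched members with both kinds of match in a full window and 0.15 for the 15 others. The median log2 difference between the controls was -0.18 in each of these sets.

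Among cyclins and the activators of CDK1, cyclin A2 lay above both controls in both Msi2 -/- mice, and the groups overlapped for the B cyclins. Ccna2, whose product acts in S phase and at entry into mitosis, measured 205 and 186 CPM in control mice, against 257 and 238 CPM in Msi2 -/- mice. Both Msi2 -/- values lay above both controls, with a log2 fold change of 0.34 (SE 0.0867; adjusted p of 0.333 in edgeR and 0.0244 in DESeq2). Cdc25b, a phosphatase that activates CDK1, measured 27.9 and 13.7 CPM in control mice, against 37.8 and 33.9 CPM in Msi2 -/- mice. Its log2 fold change of 0.79 was the highest of all members, but its SE was 0.365, and the value was 0.37 without control 2 and 1.39 without control 1. Ccnb1, for the main mitotic cyclin, measured 157 and 109 CPM in control mice, against 163 and 153 CPM in Msi2 -/- mice. Control 1 thus lay between the Msi2 -/- mice, and the 95% interval of the log2 fold change ran from -0.27 to 0.76. Without control 2 the value for Ccnb1 was 0.01, and without control 1 it was 0.53. Cdk1 itself was at 0.21 (SE 0.134), Cdc25c at 0.12 (SE 0.188) and Ccnb2 at 0.03 (SE 0.0891).

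Cks2 and Cks1b, which encode small CDK-binding subunits, were on the other side of 0. Cks2 measured 61.7 and 56.7 CPM in control mice, against 51.1 and 55.8 CPM in Msi2 -/- mice, a log2 fold change of -0.15 (SE 0.0912). Cks1b was at -0.08 (SE 0.0671). For both genes the Msi2 -/- values lay below the controls, but the 95% intervals included 0, running from -0.39 to 0.10 for Cks2. Cks1b, Ccnb1 and Ccnb2 have named copies elsewhere in the GENCODE M21 annotation, so the authors' counting could split or misplace some of their reads.

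For the kinases of mitotic entry, as for Ccnb1, the groups overlapped. Plk1, the polo-like kinase needed for spindle formation, measured 163 and 116 CPM in control mice, against 166 and 157 CPM in Msi2 -/- mice (log2 fold change 0.22 ± 0.181 SE). Aurka, the centrosomal Aurora kinase, measured 162 and 126 CPM in control mice, against 154 and 148 CPM in Msi2 -/- mice (log2 fold change 0.07 ± 0.139 SE). In both cases control 2 was the lowest library by a wide margin. Without control 2 the log2 fold changes were -0.01 for Plk1 and -0.10 for Aurka.

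Foxm1, the forkhead factor that drives G2 and M transcription, was among the members with the largest difference. It measured 95.9 and 77.8 CPM in control mice, against 130 and 134 CPM in Msi2 -/- mice, with no overlap. The log2 fold change was 0.60 (SE 0.121, 95% interval 0.28 to 0.93), with adjusted p-values of 0.293 in edgeR and 0.00159 in DESeq2. DESeq2 still called Foxm1 with any library left out except control 2, when its log2 fold change was 0.46. Mybl2, which encodes B-MYB, measured 171 and 148 CPM in control mice, against 165 and 180 CPM in Msi2 -/- mice (log2 fold change 0.11 ± 0.101 SE). Its groups overlapped.

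All 4 members of the chromosomal passenger complex, which corrects the attachment of chromosomes to the spindle, had Msi2 -/- values above both controls. Of all tested genes, 23.7% did so. Birc5, for survivin, measured 162 and 148 CPM in control mice, against 181 and 183 CPM in Msi2 -/- mice (log2 fold change 0.23 ± 0.0743 SE). Incenp, the scaffold of the complex, measured 253 and 247 CPM in control mice, against 278 and 297 CPM in Msi2 -/- mice (log2 fold change 0.20 ± 0.0694 SE). Aurkb, its kinase, measured 162 and 157 CPM in control mice, against 171 and 179 CPM in Msi2 -/- mice (log2 fold change 0.13 ± 0.0664 SE). Cdca8, for borealin, was at 0.07 (SE 0.0684). The 4 subunits thus differed between genotypes by at most 1.18-fold, and none passed an adjusted p of 0.05 in edgeR (lowest 0.36) or DESeq2. At an unadjusted p under 0.05 in edgeR, 2 were higher, Birc5 and Incenp, beside 6.69% of all tested genes.

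The spindle checkpoint genes were split in direction. Bub1b, for the checkpoint kinase BUBR1, measured 251 and 280 CPM in control mice, against 220 and 209 CPM in Msi2 -/- mice. Its log2 fold change of -0.31 (SE 0.0858) was the lowest of all members (adjusted p of 0.335 in edgeR and 0.0601 in DESeq2). Whichever library was left out, the value stayed between -0.38 and -0.23. Mad2l1, for the checkpoint protein MAD2, was also lower without overlap and measured 104 and 107 CPM in control mice, against 90.9 and 96.3 CPM in Msi2 -/- mice (log2 fold change -0.18 ± 0.0681 SE). Bub3, which carries BUB1 and BUBR1 to kinetochores, measured 183 and 161 CPM in control mice, against 200 and 192 CPM in Msi2 -/- mice (log2 fold change 0.19 ± 0.0886 SE). Bub1 and Ttk, the kinases at the head of the checkpoint, overlapped between groups at 0.11 (SE 0.118) and 0.09 (SE 0.139).

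Centromere and kinetochore genes were uneven. Spc25, a subunit of the NDC80 complex that grips microtubules, measured 54.7 and 43.7 CPM in control mice, against 65.6 and 66.8 CPM in Msi2 -/- mice (log2 fold change 0.43 ± 0.13 SE). Of its partners in the same complex, Ndc80 was at 0.10 (SE 0.102), Nuf2 at -0.02 (SE 0.0698) and Spc24 at -0.01 (SE 0.114), each with overlapping groups. The difference between Spc25 and its partners was not tested. Cenpf, an outer kinetochore protein, measured 98.7 and 76.0 CPM in control mice, against 110 and 130 CPM in Msi2 -/- mice (log2 fold change 0.46 ± 0.163 SE). Cenpa, the histone H3 variant of centromeres, measured 120 and 106 CPM in control mice, against 130 and 126 CPM in Msi2 -/- mice (log2 fold change 0.18 ± 0.0856 SE), whereas Hjurp, its chaperone, was at -0.06 (SE 0.127). Cenpe, a kinetochore motor, was at 0.15 (SE 0.125) with overlap. Without control 2, Cenpf was at 0.29 and Spc25 at 0.28.

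Spindle and microtubule proteins held the member of smallest p. Nusap1, which bundles spindle microtubules near chromosomes, measured 74.2 and 65.4 CPM in control mice, against 105 and 106 CPM in Msi2 -/- mice. The Msi2 -/- mice were nearly equal and well above both controls (log2 fold change 0.60 ± 0.0862 SE; adjusted p of 0.271 in edgeR and 1.65e-05 in DESeq2). In the GENCODE M21 annotation its exons overlap those of Oip5 on the opposite strand, and Oip5 was at -0.18 (SE 0.115). Of the other DESeq2 calls, Prc1 overlaps Rccd1, which was at 0.13 (SE 0.121), and Ccna2 overlaps Exosc9, which was at 0.11 (SE 0.0873), both on the opposite strand. Exons of Foxm1 overlap Tex52 and Gm44596 on the same strand. Gtse1, a microtubule-binding protein of G2, measured 104 and 80.5 CPM in control mice, against 132 and 129 CPM in Msi2 -/- mice (log2 fold change 0.50 ± 0.138 SE). Tacc3, which stabilises spindle fibres, measured 189 and 165 CPM in control mice, against 214 and 201 CPM in Msi2 -/- mice (log2 fold change 0.23 ± 0.0945 SE). All 7 genes of this role had log2 fold changes above 0, with Aspm at 0.26 (SE 0.154), Tpx2 at 0.17 (SE 0.0778), Ckap2 at 0.15 (SE 0.123) and Hmmr at 0.03 (SE 0.0904). The groups overlapped for Ckap2 and Hmmr.

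For all 7 genes of mitotic chromosome structure both Msi2 -/- libraries lay above both controls, as they did for 23.7% of all tested genes. Mki67, which coats mitotic chromosomes and marks proliferating cells, measured 825 and 856 CPM in control mice, against 1064 and 1179 CPM in Msi2 -/- mice (log2 fold change 0.42 ± 0.0831 SE; adjusted p of 0.293 in edgeR and 0.000703 in DESeq2). Mki67 made up 10.7% of the summed level of the members in the controls, where it was among the 6 members higher in control 2 than in control 1. Smc4, a core subunit of condensin, measured 387 and 380 CPM in control mice, against 516 and 448 CPM in Msi2 -/- mice (log2 fold change 0.33 ± 0.0927 SE). Top2a, the topoisomerase that untangles sister chromatids, measured 614 and 575 CPM in control mice, against 681 and 755 CPM in Msi2 -/- mice (log2 fold change 0.27 ± 0.0865 SE). The other condensin genes lay on the same side of 0, with Smc2 at 0.21 (SE 0.0694), Ncaph at 0.19 (SE 0.0686), Ncapg at 0.17 (SE 0.0789) and Ncapd2 at 0.09 (SE 0.063). The median over these 7 genes was 0.21, and the median difference between the controls was -0.06.

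The anaphase genes were marked by the low control 2. Ube2c, the ubiquitin-conjugating enzyme of the anaphase-promoting complex, measured 151 and 92.6 CPM in control mice, against 152 and 139 CPM in Msi2 -/- mice. Only control 2 stood apart, and the log2 fold change of 0.26 (SE 0.252) was -0.05 without that library and 0.66 without control 1. Cdca3, a protein that promotes mitotic entry, measured 178 and 154 CPM in control mice, against 208 and 195 CPM in Msi2 -/- mice (log2 fold change 0.28 ± 0.0986 SE). Espl1, for separase, the protease that cuts cohesin, measured 126 and 112 CPM in control mice, against 141 and 127 CPM in Msi2 -/- mice (log2 fold change 0.17 ± 0.0996 SE). Cdc20, the activator of the anaphase-promoting complex, was at 0.11 (SE 0.118) and Pttg1, for securin, at 0.01 (SE 0.131), with overlapping groups.

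Genes of cytokinesis held 2 of the 8 DESeq2 calls. Prc1, which bundles the microtubules of the central spindle, measured 111 and 80.9 CPM in control mice, against 151 and 156 CPM in Msi2 -/- mice (log2 fold change 0.68 ± 0.166 SE; adjusted p of 0.32 in edgeR and 0.00685 in DESeq2). Its value was 0.48 without control 2 and 0.93 without control 1. Racgap1, a subunit of centralspindlin, measured 141 and 138 CPM in control mice, against 179 and 174 CPM in Msi2 -/- mice (log2 fold change 0.34 ± 0.0625 SE; adjusted p of 0.293 in edgeR and 0.00038 in DESeq2). Racgap1 had the smallest SE of all members, and its log2 fold change stayed between 0.32 and 0.36 whichever library was left out. Cep55, a midbody protein, measured 62.2 and 48.4 CPM in control mice, against 68.3 and 69.1 CPM in Msi2 -/- mice (log2 fold change 0.31 ± 0.14 SE). Anln, for the contractile ring protein anillin, was at 0.13 (SE 0.0692) without overlap. Ect2, the exchange factor that starts furrowing and binds centralspindlin, was at -0.03 (SE 0.0755) with overlap.

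**Figure D4:**
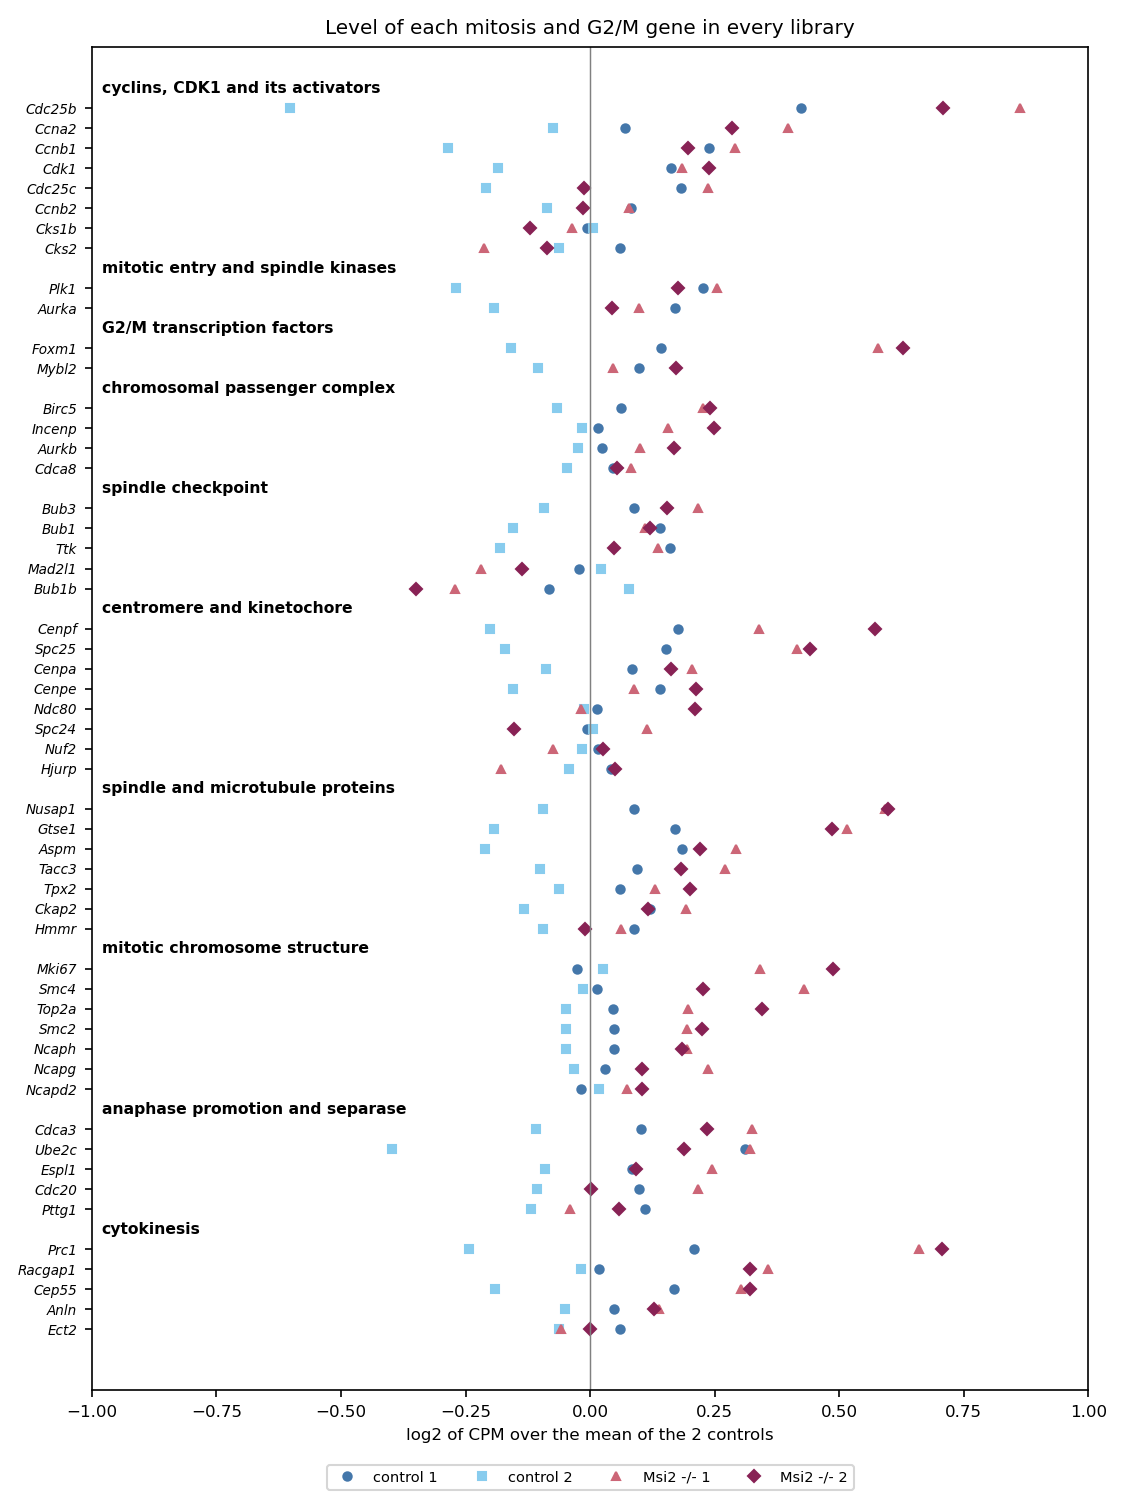
Level of every member in each of the 4 libraries, as the log2 of its CPM over the mean of the 2 controls (horizontal axis), grouped by role. Control 2 (light squares) is the lowest library for most cyclin, kinase, spindle and anaphase genes. Both Msi2 -/- libraries lie right of both controls for all 7 genes of mitotic chromosome structure, and for 23.7% of all tested genes.

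Per kilobase of merged exons in GENCODE M21 (GRCm38), a different annotation from the one used for counting, Cks1b, Top2a and Ccnb2 had the highest levels in the controls, at 120, 114 and 104 CPM per kilobase. The SDs over the 2 controls were 0.744, 5.30 and 8.61, so Top2a and Ccnb2 did not stand apart beyond their spread. Cdc25b, Hjurp and Aspm were lowest, at 6.62, 6.10 and 4.94 CPM per kilobase, with SDs of 3.20, 0.255 and 0.949. The members thus spanned a wide range of levels, and across the 53 genes the Pearson correlation between mean log2 CPM and log2 fold change was 0.06, as a description over genes that share the same libraries.

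Mitotic genes outside the 53 had a median closer to 0. Of 75 further genes of the anaphase-promoting complex, kinetochore, condensin II, MuvB core and spindle, 47 lay above 0 on the log2 scale and 28 lay below it (median 0.04). None passed an adjusted p of 0.05 in edgeR. At an unadjusted p under 0.05 in edgeR, 5 were higher and 0 lower, beside 6.69% and 6.17% of all tested genes. DESeq2 called 4 higher and 0 lower, where it called 3.1% of its tested genes higher and 2.71% lower. The 4 of smallest p were Fam64a, a mitotic regulator gene, at 0.68 (SE 0.136), Anapc11, a catalytic subunit of the anaphase-promoting complex, at 0.46 (SE 0.112), Haus8, of the augmin complex, at 0.29 (SE 0.0774), and Psrc1, a spindle protein gene, at 0.64 (SE 0.182). Fam64a measured 33.4 and 27.0 CPM in control mice, against 47.6 and 49.3 CPM in Msi2 -/- mice, with no overlap.

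Genes of S phase lay on either side of 0. Of 44 tested, 19 lay above 0 on the log2 scale and 25 lay below it (median -0.03). In edgeR 0 passed an adjusted p of 0.05. At an unadjusted p under 0.05 in edgeR, 2 were higher and 3 lower, beside 6.69% and 6.17% of all tested genes. DESeq2 called 2 higher and 2 lower, where it called 3.1% of its tested genes higher and 2.71% lower. E2f8 and E2f1, transcription factors of the E2F family, were at 0.37 (SE 0.0642) and 0.35 (SE 0.065), and Cdc45, of the replication helicase, was at -0.41 (SE 0.101). The controls differed here the other way round, with control 2 above control 1 for 39 of the 44 genes and a median difference of 0.15. The summed level of the mitotic members over that of the S phase genes was 1.05 in control 1 and 0.855 in control 2, and 1.11 and 1.12 in the Msi2 -/- libraries. Control 2 was thus the library with the lowest mitotic and highest S phase level, and control 1 lay nearer to the Msi2 -/- mice in this ratio. The differences between these lists were not tested.

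**Figure D5:**
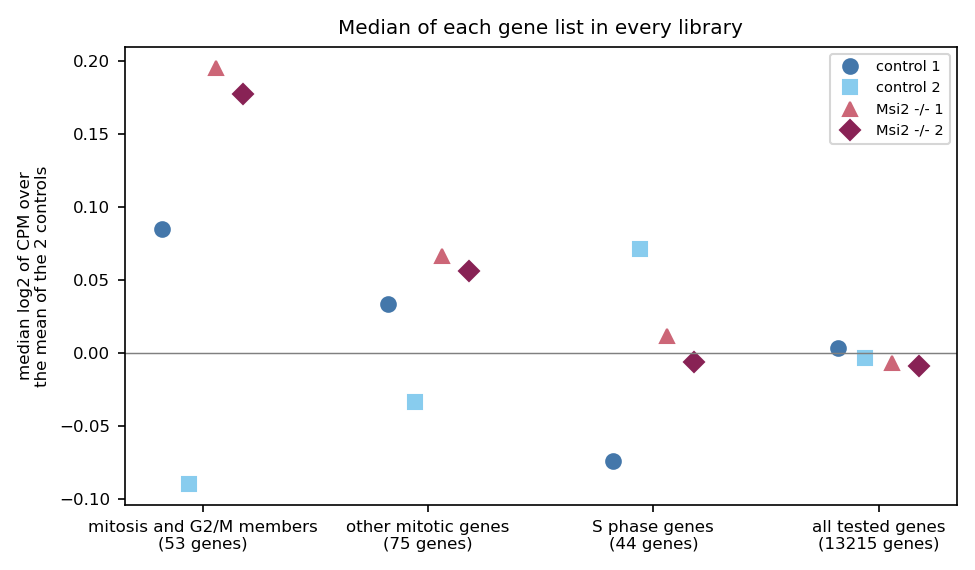
Median of each gene list in each library, as the log2 of CPM over the mean of the 2 controls (vertical axis). For the 53 members the Msi2 -/- libraries stand at 0.20 and 0.18, control 1 at 0.08 and control 2 at -0.09. For the S phase genes control 2 is highest at 0.07 and control 1 lowest at -0.07.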

How the data were processed

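Sorted c-Kit high cells of 4 leukemic mice gave 1 paired-end library each (Trizol and RNeasy extraction, Illumina TruSeq RNA kit, per the labels' protocols). The submitters' processing notes name Trimmomatic, STAR, HTSeq and DESeq, and the build mm9, with no versions. No source used here gives the annotation, strand setting or overlap mode, so a gene may share reads with an overlapping or antisense neighbour; in GENCODE M21 the exons of 10 members overlap another gene. The authors deposited unnormalized whole-number read counts for each gene symbol. The 5 closing rows that name no gene held between 19.1% and 20.1% of counts and were left out.

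Groups came from the titles. The replicates differed by more than sampling noise (mean chi-square per gene 51.7 and 125 in controls and Msi2 -/-). In R 4.3.3, edgeR 4.0.16 was fitted on the whole table (filterByExpr with minimum count 10 and minimum total 15, TMM, quasi-likelihood test, 2-sided, genotype as the only term), with Benjamini-Hochberg adjustment over 13215 genes. The SE comes from the F statistic, and its interval from the fit's degrees of freedom. DESeq2 1.42.0 (13350 adjusted p-values), limma-voom (limma 3.58.1), other scalings and filters, a replicate block and leaving out each library were alternatives. On simulated data both edgeR and DESeq2 recovered most changed genes, and DESeq2 made more false calls than edgeR. The effect sizes and spread used there are not given here, and whether this outcome holds for the 4 libraries was not tested. In the 4 libraries edgeR called 1 gene and did not call Msi2 (adjusted p of 0.122 in edgeR). Values of every library are given for the 3 members of smallest p in each role (all in smaller roles) and for a few others, and the named genes of the other lists are those of smallest p. The members and lists were chosen with earlier results of these data known. Of the 75 other mitotic genes, 4 were matched through older symbols in the RefSeq table. Promoter windows are from RefSeq on GRCm38.p6, and coordinates refer to that build, not to the authors' mm9. No promoter window was matched for Aurkb, Ccna2, Cdc25c, Foxm1, Incenp, Smc4, Spc24 and Tpx2.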

Additional observations from a re-analysis of the deposited data

How the results depend on the processing

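Every member had at least 997 counts per library, so the number of mice, 2 per genotype, limits precision more than depth does. The number of members called was 0 in edgeR's quasi-likelihood test under every scaling, filter, block and left-out library, and 0 by limma-voom, but 8 by DESeq2 and 3 by edgeR's likelihood ratio test. Over all genes 1 was called, against 6 with no filter, 776 by DESeq2, 0 by limma-voom, 312 by the likelihood ratio test, 0 with the replicate block, and 0 to 106 with a library left out. Members higher at an unadjusted p under 0.05 numbered 16, against 10 by the likelihood ratio test and 6 to 20 with a library left out. The members called by DESeq2 changed with a library left out, an alternative chosen after seeing the data. The members' median log2 fold change was 0.15 to 0.18 under the other scalings, filters and tools and 0.088 to 0.27 with a library left out; in each case where 1 library is left out, 1 group holds a single mouse, which is assumed to vary like the others. The cause of these changes was not tested.

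The labels do not tie same-numbered mice to each other. These deviated together with a correlation of 0.03 over all genes and 0.23 over the members. The replicate block gave a median of 0.17 and 12 members higher at an unadjusted p under 0.05, beside 5.75% of all tested genes.

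The sign of the log2 fold change turned when a library was left out for 14 members, over these ranges of the value: Ccnb2 -0.048 to 0.12, Cdc25c -0.064 to 0.33, Plk1 -0.0083 to 0.49, Aurka -0.097 to 0.27, Bub1 -0.023 to 0.27, Ttk -0.066 to 0.28, Ndc80 -0.018 to 0.22, Nuf2 -0.073 to 0.035, Spc24 -0.14 to 0.11, Hjurp -0.18 to 0.059, Hmmr -0.060 to 0.12, Ube2c -0.052 to 0.66, Pttg1 -0.098 to 0.13 and Ect2 -0.087 to 0.035. For Pttg1 it also turned with upper-quartile scaling, to -0.013. No other member's sign turned under the alternatives run.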
